A study of Mus musculus with 13 samples.

Results

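Adgrg1 encodes an adhesion G protein-coupled receptor, also called GPR56. It was followed as 1 gene of the 13044 with a tested value (35498 were annotated) in 13 libraries of mouse cell lines described as melanoma. It was chosen by its measured level, which was higher in cell line 6 than in cell line 16 among the NLS lines, and higher in cell line 12 than in cell line 10 among the LacZ lines. Those differences between lines are therefore given as a description, with no test. The differences between time labels, and between the NLS and LacZ lines, were not used in the choice.

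Adhesion receptors carry a long extracellular part that is cut from the membrane-spanning part by the receptor itself during maturation, after which both pieces stay bound at the cell surface. Adgrg1 binds collagen III and tissue transglutaminase outside the cell, and signals through G12 and G13 proteins to RhoA, a switch of the actin cytoskeleton. It is known for cortical development, for human cytotoxic lymphocytes, and, in human melanoma cells grafted into mice, for restraining metastasis.

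The series concerns soluble adenylyl cyclase (sAC, gene Adcy10), an enzyme that makes cyclic AMP, switched on by doxycycline in chosen places in the cell. The lines titled NLS, whose sAC label under doxycycline is nuclear, comprised cell lines 6, 7 and 16, each sampled at 0 h (t0, no doxycycline), 6 h (t6) and 48 h (t48), which gives 3 libraries per time. The lines titled LacZ had 2 libraries each at t48 and t0, from cell lines 12 and 10. All 5 lines were cultured in vitro, and doxycycline was the only agent named. The LacZ t48 libraries also carry the nuclear sAC label; their titles decided the group. The promoter of the construct, the parental line and whether a line is 1 clone are not stated in the labels. Beyond the cell line numbers nothing says that libraries came from separate cultures, so the p-values reflect only how far these libraries scatter, which may be technical.

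Depth was 18512887 to 22584628 estimated reads per library. Adcy10 did not follow the time labels: it was at 339.2 to 371.2 CPM (reads scaled to library size) in line 6, 181.2 to 200.4 CPM in line 7, 0.671 to 1.22 CPM in line 16 and at most 0.167 CPM in the LacZ lines. The time contrasts below are therefore differences between libraries labelled with those times. Of 10 melanocyte markers, summed to 4.36 to 6.48 CPM in NLS and 4.28 to 5.42 CPM in LacZ libraries, Tyrp1 was at 0 in all 13 libraries, Sox10 reached 0.0512 CPM and Mlana 0.0499 CPM, and most of the sum was Mitf (2.76 to 5.37 CPM), with Slc45a2 at most at 1.12 CPM. Dct, Pmel, Kit and Ednrb reached at most 0.358 CPM, and Tyr 0.933 CPM. Tyrp1, Sox10 and Mlana were thus at or near 0 in these lines, while Mitf was present at a low level. The name melanoma is therefore not borne out by these markers, and the identity of the cells was not tested. The 8 fibroblast markers summed to 7790 to 17100 CPM in NLS and 7120 to 8220 CPM in LacZ libraries. The collagen genes Col1a1 (2560 to 6920 CPM), Col1a2 (2030 to 4570) and Col3a1 (1630 to 5630) made up nearly all of that sum. Pdgfrb was at 161 to 221 CPM, Pdgfra at 12.5 to 256 CPM and Dcn at 3.13 to 18.5 CPM. Lum was at most at 0.0536 CPM and Thy1 at most at 0.0942 CPM.

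The gene (ENSMUSG00000031785.16) lies on the plus strand of GRCm38 at chr8:94974751-95014217. Transcript Adgrg1-201, which held nearly all of its reads, starts downstream of a second annotated start, used by Adgrg1-211 and 7.38 kb away. The bases just before each of these starts are shown because the reads of the gene divide between them, and because cyclic AMP acts on promoters through CREB, the factor that binds the CRE motif. Both come from RefSeq (GRCm38.p6, plus strand, 5′ to 3′), end at the base before the first exon and are in lower case, with matches to the AP-1 motif TGANTCA in capitals. The window before Adgrg1-201 is chr8:94984149-94984370 and that before Adgrg1-211 is chr8:94976859-94976992.
Adgrg1-201 window: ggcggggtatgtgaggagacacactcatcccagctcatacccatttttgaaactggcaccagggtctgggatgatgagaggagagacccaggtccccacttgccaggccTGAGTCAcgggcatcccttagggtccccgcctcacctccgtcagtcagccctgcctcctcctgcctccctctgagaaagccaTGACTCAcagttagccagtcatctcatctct
Adgrg1-211 window: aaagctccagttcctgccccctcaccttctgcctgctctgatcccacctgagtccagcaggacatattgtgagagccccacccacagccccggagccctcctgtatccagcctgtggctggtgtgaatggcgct
The motifs TGACGTCA (CRE), TGACG (the CRE core, which is also part of the full CRE), TGANTCA (AP-1, bound by Fos and Jun), CACGTG (E-box), CATGTG (bound by MITF) and GGAATG (bound by TEAD factors) were searched on both strands. The Adgrg1-201 window held AP-1 matches beginning 113 and 31 bases before the first exon, and 6.16% of 32851 promoter windows of the same length held at least 1. Such windows, here and below, were cut at a fixed place before their RefSeq starts. They end short of those starts, not at the base before a first exon. It also held 1 CRE core match, 75 bases before the exon, as did 15.1% of windows. The full CRE (1.17% of windows), CACGTG (5.06%), CATGTG (11.2%) and GGAATG (11.5%) were not matched there. The Adgrg1-211 window matched none of the 6 motifs; at its length the shares of windows with a match were 0.289% for the CRE, 7.37% for its core, 3.47% for AP-1, 2.49% for CACGTG, 7.21% for CATGTG and 7.29% for GGAATG.

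Adgrg1 was expressed in all 13 libraries, between 3.16 and 39.3 CPM, a 12.4-fold range. Its mean of 9.17 TPM (a unit that also allows for transcript length) was above that of 34.3% of the tested genes. In NLS line 6 the level was 16.1 CPM at t0 (exact 95% Poisson interval for counting error 14.5 to 17.9), 12.2 CPM at t6 (10.8 to 13.8) and 22.1 CPM at t48 (20.1 to 24.2). NLS line 7 gave 11.5 CPM at t0 (10.2 to 13), 9.59 CPM at t6 (8.26 to 11.1) and 15.1 CPM at t48 (13.5 to 16.8). Both lines were lowest at t6 and highest at t48. NLS line 16 had 3.16 CPM at t0 (2.45 to 4.02), 3.77 CPM at t6 (2.99 to 4.67) and 6.58 CPM at t48 (5.48 to 7.85), the lowest level of the NLS lines at each time. LacZ line 12 had 23.6 CPM at t48 (21.5 to 25.8), against 39.3 CPM at t0 (36.6 to 42.1). LacZ line 10 had 4.95 CPM at t48 (3.97 to 6.09), against 14.3 CPM at t0 (12.7 to 16.1). In both LacZ lines the t48 library was the lower, with intervals that do not overlap, whereas in all 3 NLS lines it was the higher. Raw support was 66 to 786 estimated reads per library, and intervals cover counting error only. In such bulk libraries, fewer cells that express the gene and less RNA per cell cannot be told apart.

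**Figure D1:**
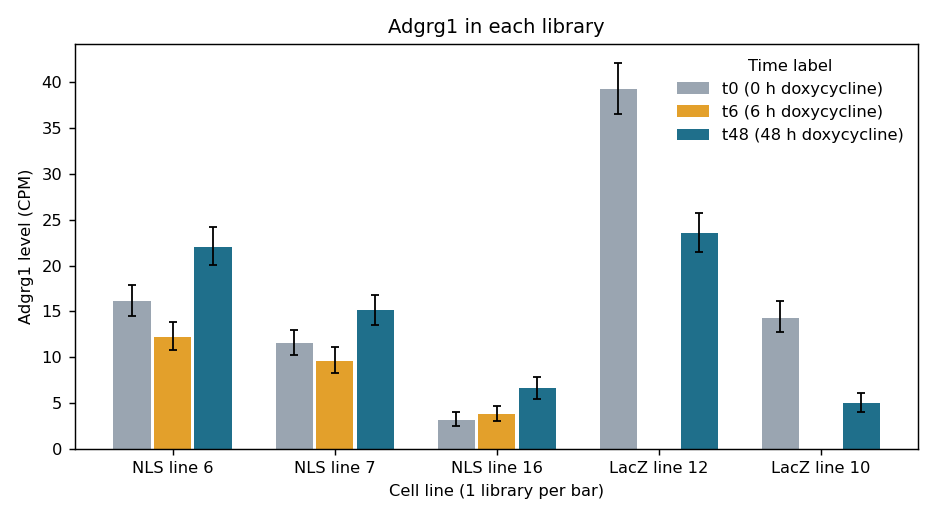
Adgrg1 level in CPM (bars, 1 library each) for the 5 cell lines, coloured by time label, with exact 95% Poisson intervals for counting error. The t48 bar is the tallest of each NLS line and the shorter of each LacZ line, and line 12 at t0 is the highest of the 13 at 39.3 CPM.

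Averaged over their libraries, the levels were 31.4 ± 11.1 CPM in line 12 (SD, n = 2), 16.8 ± 4.97 CPM in line 6 (n = 3), 12.1 ± 2.8 CPM in line 7 (n = 3), 9.63 ± 6.63 CPM in line 10 (n = 2) and 4.5 ± 1.83 CPM in line 16 (n = 3). In that order lines 12 and 6 had ranges that do not overlap, and the other neighbours (6 and 7, 7 and 10, 10 and 16) overlapped. The order changed with time. At t0 line 10 stood above line 7, and at t48 line 10 was the lowest of the 5, below line 16. The contrasts that chose the gene were large at each time. Line 6 over line 16 was 5.09-fold at t0, 3.25-fold at t6 and 3.35-fold at t48, a mean log2 ratio of 1.93 ± 0.36 (SD of 3 times). Line 12 over line 10 was 2.74-fold at t0 and 4.77-fold at t48, a mean log2 ratio of 1.85 ± 0.56. Over all genes, 0.872% were called higher in line 6 than in line 16 by edgeR with time as a term, and 0.769% higher in line 12 than in line 10; nothing is read from these shares, since the rule used the same contrasts.

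Line 7 lay, at each time, between the other NLS lines. Line 7 over line 16 was 3.65-fold at t0, 2.55-fold at t6 and 2.29-fold at t48, and line 6 over line 7 was 1.4-fold, 1.27-fold and 1.46-fold at the same times. Of the genes tested, 12% were called higher in line 7 than in line 16 and 5.51% higher in line 6 than in line 7.

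Adcy10 and Adgrg1 were set side by side across the 13 libraries. Among NLS lines, lines 6 and 7 had both more Adcy10 and more Adgrg1 than line 16. The LacZ lines had at most 3 Adcy10 reads per library and both the highest Adgrg1 level, in line 12, and a level of 4.95 CPM in line 10. With 5 lines, no relation across lines was tested.

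**Figure D2:**
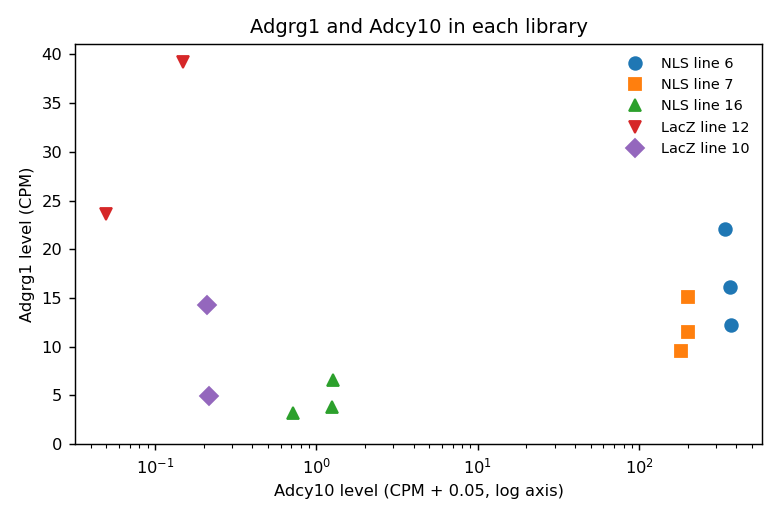
Adgrg1 level in CPM against Adcy10 level in CPM plus 0.05 (log axis), 1 point per library, marked by cell line. Lines 6 and 7 stand at 181.2 CPM of Adcy10 or more, and the LacZ lines, at 0.167 CPM or less, cover 4.95 to 39.3 CPM of Adgrg1.

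The time labels were compared first within the NLS lines. Without regard to cell line, the means were 14.6 ± 7.76 CPM at t48 and 10.3 ± 6.56 CPM at t0 (SD, n = 3 each), a log2 fold change of 0.51 (SE 0.80, adjusted p = 0.696 by edgeR's quasi-likelihood test with Benjamini-Hochberg adjustment). That difference was smaller than the spread between lines; 26.1% of the 13044 genes were called in this comparison. Within a line the t48 level was 1.37-fold the t0 level in line 6, 1.31-fold in line 7 and 2.08-fold in line 16. With cell line as a block, the log2 fold change was 0.55 (SE 0.15, adjusted p = 0.0113, edgeR), so Adgrg1 rose in that fit, among 39.8% of genes called. The call was kept in 5 of 9 blocked leave-out fits (a library or a line removed), at log2 fold changes of 0.42 to 0.64. It was lost without line 6 (adjusted p = 0.0851), without line 7 (0.0685), without line 16 (0.0572) and without the t48 library of line 6 (0.0612).

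At t6 the NLS lines did not move together. The t6 level was 0.759-fold the t0 level in line 6, 0.832-fold in line 7 and 1.19-fold in line 16. Group means were 8.52 ± 4.33 CPM at t6 and 10.3 ± 6.56 CPM at t0 (SD, n = 3 each), with a log2 fold change of -0.28 (SE 0.83, adjusted p = 0.855, edgeR; 20.8% of genes called). The blocked value was -0.22 (SE 0.16, adjusted p = 0.317; 34.7% of genes called), with a 95% interval of -0.56 to 0.12. From t6 on, all 3 lines were higher at t48. The t48 level was 1.81-fold the t6 level in line 6, 1.58-fold in line 7 and 1.75-fold in line 16. The log2 fold change was 0.79 without the block (SE 0.82, adjusted p = 0.532, edgeR; 28.2% of genes called) and 0.77 with it (SE 0.15, adjusted p = 0.00162; 41.2% called). The blocked call was lost only without line 6 among 9 such fits (adjusted p = 0.0563).

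In the LacZ lines the t48 level was 0.601-fold the t0 level in line 12 and 0.346-fold in line 10. The means were 14.3 ± 13.2 CPM at t48 and 26.8 ± 17.6 CPM at t0 (SD, n = 2 each), with a log2 fold change of -0.90 (SE 0.95, adjusted p = 0.57, edgeR; 18.5% of genes called). With cell line as a block Adgrg1 fell by 1.03 on the log2 scale (SE 0.17, adjusted p = 0.000869; 33% of genes called). That call was kept in all 6 blocked leave-out fits, between -1.53 and -0.73. In a blocked fit, removing 1 library of a LacZ line also removes that line's change. The 6 fits thus repeat 2 checks, at -0.74 to -0.73 for line 10 left out and -1.53 to -1.52 for line 12. Leaving out a LacZ library leaves 1 line, whose spread is then assumed to be like that of the NLS lines.

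The 2 sets of lines thus stood on opposite sides of their own t0 level at t48. Taken over lines, the log2 change was 0.63 ± 0.37 in NLS (SD, n = 3) and -1.13 ± 0.56 in LacZ (SD, n = 2), a difference of 1.77. An exact two-sided permutation test of lines gave p = 0.1, the smallest p that the 10 possible assignments allow. As an interaction in edgeR the difference was 1.41 without the block (SE 1.24, adjusted p = 0.467; 23.3% of genes called) and 1.58 with it (SE 0.23, adjusted p = 0.000229, 95% interval 1.08 to 2.09; 37.4% called). The blocked call was kept in all 15 leave-out fits, between 1.27 and 2.08. Among these fits, those without a LacZ library or line again repeat 2 checks, 1 per LacZ line. The 6 markers of cytotoxic lymphocytes, a cell type that uses Adgrg1, summed to 0.568 to 3.29 CPM in NLS and 0.0999 to 0.167 CPM in LacZ libraries, with Ncr1 and Nkg7 at 0 in all 13. Gzmb (at most 2.18 CPM) and Eomes (at most 1.12 CPM) made up most of the sum in the NLS libraries, and Klrb1c and Prf1 reached 0.0471 and 0.0999 CPM. The 4 neural progenitor markers summed to 228 to 415 CPM in NLS and 509 to 682 CPM in LacZ libraries, nearly all of it Nes, an intermediate filament gene (225 to 674 CPM), with Olig2 at 0 in all 13. Of the 3 tested, 1 was higher and 0 lower at NLS t48 against t0, beside 14.8% and 11.3% of all genes (median log2 fold change 0.32, against -0.01 over all genes). The LacZ contrast had 0 higher and 2 lower, beside 8.68% and 9.87% of all genes (median -1.05, against 0). Their difference of responses had a median of 0.88 (0.02 over all genes). It was called higher for 1, Pax6 (3.32, SE 0.47, adjusted p = 0.000288, edgeR), and lower for 0, beside 12.1% and 11.2% of all genes. Pax6 lay at 0.614 to 4.19 CPM. With the block it was higher for 3 and lower for 0 (37.4% of genes in either direction). The medians of the neural progenitor markers at t48 thus had the same signs as the values of Adgrg1, which was not particular to them. The 6 tested fibroblast markers had medians of 0.13 in NLS, -0.28 in LacZ and 0.34 for the difference. The 2 tested keratinocyte markers (0.41, -0.58 and 0.99) and the 1 tested endothelial marker (0.35, -0.25 and 0.59) had these signs too. The melanocyte, leukocyte and cytotoxic lymphocyte lists did not share all of these signs. The part of any marker list in the Adgrg1 values was not tested.

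**Figure D3:**
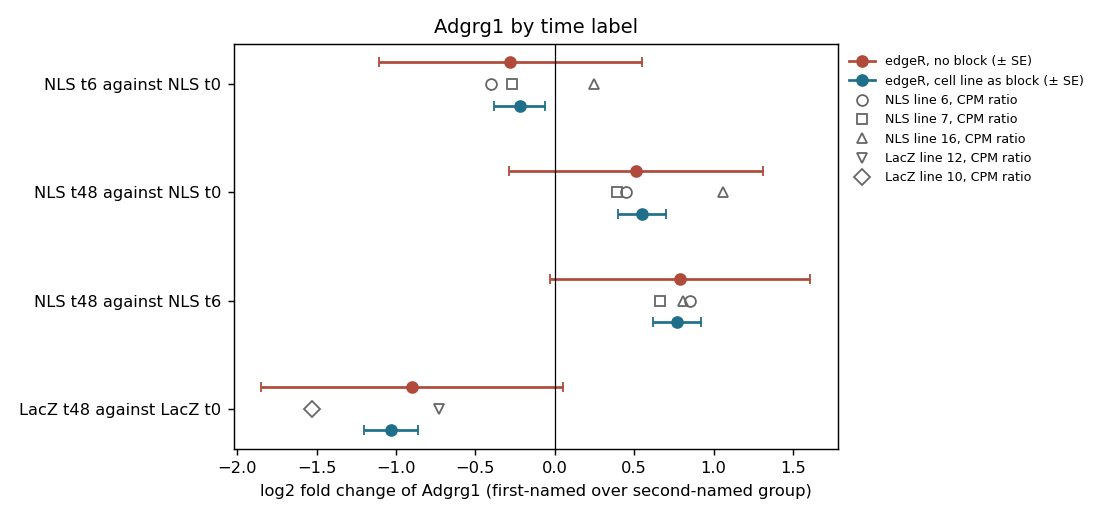
Log2 fold change of Adgrg1 between time labels (first-named over second-named group). Filled points are edgeR estimates with SE, without a block in red and with cell line as a block in blue, and open symbols are the ratios within each line. The NLS t48 against t0 ratios lie right of 0 in all 3 lines and the LacZ ratios left of 0 in both lines, with blocked estimates of 0.55 and -1.03.

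Directly compared, NLS and LacZ lines overlapped at both times. At t0 the means were 10.3 ± 6.56 CPM in NLS (SD, n = 3) and 26.8 ± 17.6 CPM in LacZ (SD, n = 2), with a log2 fold change of -1.38 (SE 0.86, adjusted p = 0.233, edgeR; 43.5% of genes called). At t48 they were 14.6 ± 7.76 CPM in NLS and 14.3 ± 13.2 CPM in LacZ, with a log2 fold change of 0.03 (SE 0.89, adjusted p = 0.985; 45.1% called). Cell lines are nested in the sets, so no block is possible here and the construct cannot be told apart from the line.

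The annotation lists 16 Adgrg1 transcripts, 12 of them protein coding, and 7 had any estimated reads. Adgrg1-201 (ENSMUST00000093271.7, 14 exons, 3574 bases) held 3598 estimated reads, 95.7% of the gene, and between 92.1% and 100% in each library. The full-length Adgrg1-202, which starts near Adgrg1-211, had 0. Adgrg1-211 (ENSMUST00000212581.1), a short transcript of 3 exons and 384 bases, held 118.1 reads, 3.14% of the gene. Of its bases 326 are shared with Adgrg1-201 and only the first exon, of 58 bases, is in no other transcript. The remaining transcripts with reads were Adgrg1-208 (18.1 reads), Adgrg1-215 (12.5), Adgrg1-203 (7.6), Adgrg1-205 (3.8) and Adgrg1-206 (1.3).

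**Figure D4:**
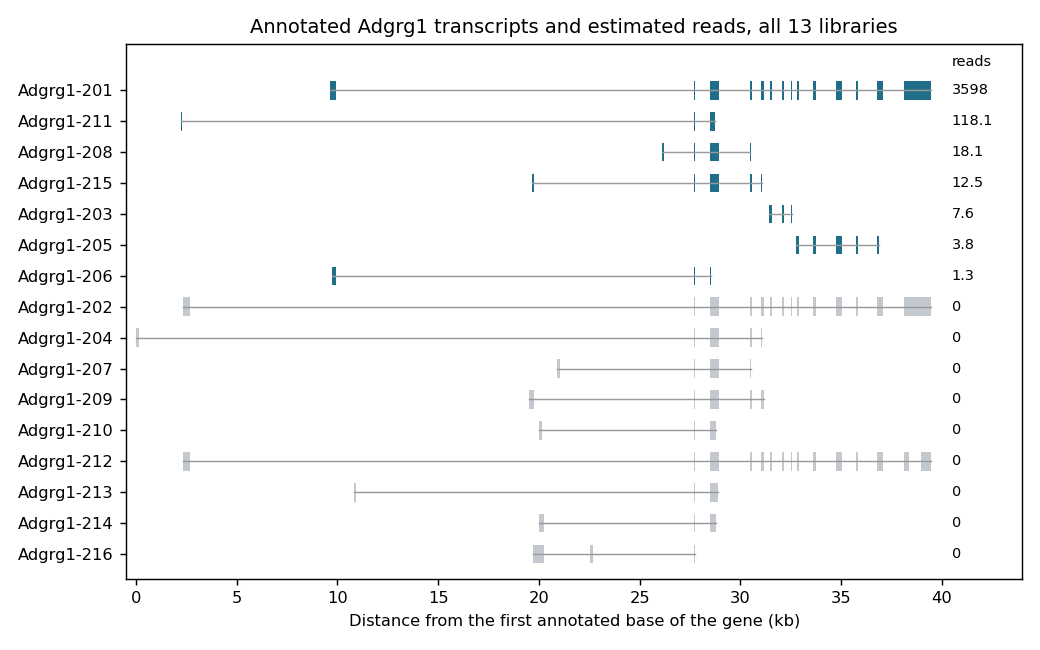
Exons (boxes) and introns (lines) of the 16 annotated Adgrg1 transcripts against distance from the first annotated base in kb, blue where reads were assigned and grey where none were, with the estimated reads of all 13 libraries at the right. Adgrg1-201 holds 3598 reads, and the next, Adgrg1-211, 118.1.

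Summed over the libraries of a line, Adgrg1-211 held 5.86% of the gene's reads in line 6 (exact 95% binomial interval 4.53 to 7.41), against 1.14% in line 16 (0.228 to 3.19) and 0 of 789.1 reads in line 7 (0 to 0.466). In LacZ it was 3.52% in line 12 (2.57 to 4.7), against 1.96% in line 10 (0.794 to 4.01). The intervals of line 6 and of the other 2 NLS lines do not overlap, and those of lines 12 and 10 do, but they leave out the spread between the libraries of a line. Per library the share was 4.46% at t0, 7.09% at t6 and 6.25% at t48 in line 6, and 4.7% at t0 and 0 at t6 and t48 in line 16. In line 12 it was 2.91% at t48 and 3.87% at t0, and in line 10 it was 7.86% at t48 and 0 at t0. The t0 libraries of lines 6 and 16 thus had about the same share, and the difference between lines was not tested. Salmon shares reads between overlapping transcripts by a model, and the error of that division is not in the intervals. Because Adgrg1-211 is short, its few reads make up 30.3 to 55.3% of the gene's summed TPM in the 7 libraries that have any. The summed TPM of Adgrg1 in those libraries therefore rests in large part on few reads, and Adgrg1-201 alone averaged 5.79 TPM over the 13 libraries (1.31 to 15.9). By the TPM of Adgrg1-201, line 6 over line 16 was 4.82-fold at t0, 3.31-fold at t6 and 3.23-fold at t48, and line 12 over line 10 was 2.8-fold at t0 and 5.34-fold at t48.

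Tested as a transcript with cell line as a block, Adgrg1-201 gave log2 fold changes of 0.62 for NLS t48 against t0 (SE 0.20, adjusted p = 0.228, edgeR) and -1.15 for LacZ t48 against t0 (SE 0.25, adjusted p = 0.0895). Their difference was 1.77 (SE 0.32, adjusted p = 0.0443), among 2.77% of 40403 transcripts called, and 1.43 without the block (adjusted p = 0.721; 2.18% called). Adgrg1-211 passed no test. The blocked shares of transcripts called were 2.94% for NLS t48 against t0 and 1.82% for LacZ.

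Among 30 adhesion receptor genes, 12 were tested and the other 18 stayed at or below 0.459 CPM, 5 of them (Adgre1, Adgre4, Adgrf1, Adgrf3 and Adgrg2) at 0 reads in all 13 libraries. Per transcript length, Adgrg1 ranked 8 of these 12 by mean summed TPM, and 5.79 TPM for Adgrg1-201 alone gives the same place. Adgra3 had 30.9 TPM, Adgrl2, a latrophilin, 28.6 TPM, Adgra2, which serves brain angiogenesis, 26.2 TPM, and Adgrg6, which serves myelination by Schwann cells, 19 TPM. Adgrl1 (14), Adgrl3 (11.7) and Adgre5, or CD97 (10.6), also lay above Adgrg1, while Adgra1 (5.09), Adgrb2 (0.704), Celsr1 (0.5) and Adgrd1 (0.0751) lay below it. Among the tested members with reads in all 13 libraries, its 12.4-fold range in CPM was exceeded by Adgrl3 (15-fold, 4.14 to 62.3 CPM) and Celsr1 (38.6-fold), the other well-expressed members being steadier: Adgrl1 spanned 2.92-fold and Adgrg6 2.27-fold. Adgrd1 ran between 0 and 1.01 CPM, for which no ratio is given.

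**Figure D5:**
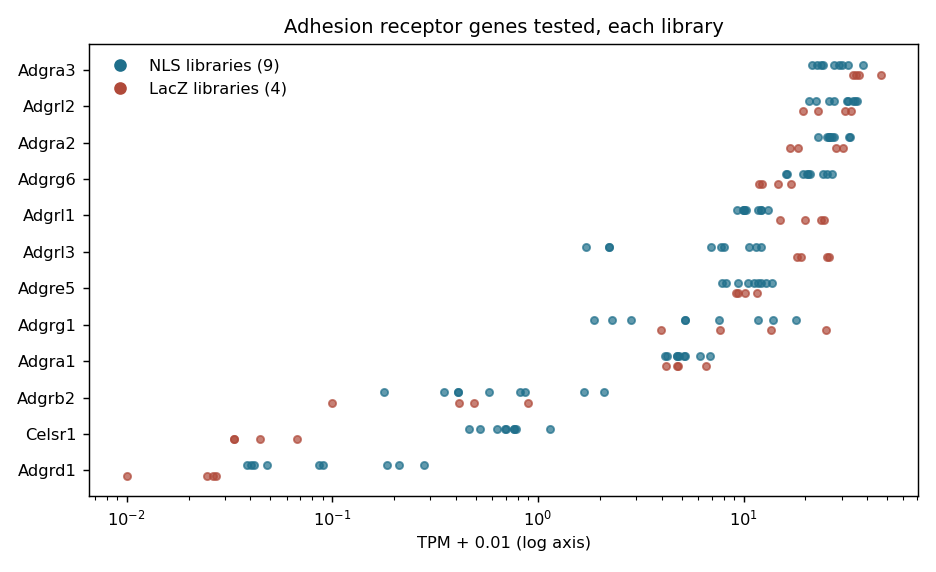
TPM plus 0.01 (log axis) of the 12 tested adhesion receptor genes in each of the 9 NLS libraries (blue) and 4 LacZ libraries (red), in order of mean TPM. Adgrg1 spreads from 1.87 to 25.3 summed TPM with both sets interleaved, while Celsr1, Adgrl3 and, at very low levels, Adgrd1 separate by set.

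The other family members responded to the time labels in different directions. At NLS t48 against t0, 4 of the 11 others (Adgrb2, Celsr1, Adgrd1 and Adgrl2) were higher and 1 (Adgrl3) lower (over all genes, 14.8% were called higher and 11.3% lower), with a median log2 fold change of 0.13 against -0.01 over all genes. Adgrl3 fell by 2 on the log2 scale (SE 0.13, adjusted p = 1.57e-07, edgeR) and Adgrl2 was higher by 0.36 (SE 0.08, adjusted p = 0.00492); both calls were kept in all 9 leave-out fits. The Adgrd1 call was kept in 8 of 9 (adjusted p = 0.101 without line 16), but those of Adgrb2 and Celsr1 in 2 of 9 each (adjusted p up to 0.287 and 0.162, both without line 6). On length-scaled counts Celsr1 changed sign (-0.01) in this comparison, and Adgrl1 did (-0.17) in the difference of responses below. Adgrb2, at 0.205 to 1.97 CPM, lost its calls on those counts. Its edgeR adjusted p was then 0.959 here, 0.402 in LacZ and 0.47 in the difference of responses. In LacZ 2 were higher and 4 lower (8.68% and 9.87% of all genes; median -0.19 against 0), with Adgra2 up by 0.75 (SE 0.10, adjusted p = 0.000225) in all 6. Of the other LacZ calls, leave-out fits kept Adgrl1 in 5 of 6, Adgrl2 in 3, Adgrb2 in 1, and Adgra3 and Adgrl3 in 0 (adjusted p up to 0.356 without line 10 and 0.494 without line 12). The difference of responses was called higher for 3 (Adgrb2, Adgrl1 and Adgrl2) and lower for 2 (Adgra2 and Adgrl3), beside 12.1% and 11.2% of all genes. With the block it was called higher for 4 and lower for 4 (37.4% of all genes in either direction). At NLS t6, 4 were higher and 2 lower, beside 11.6% and 9.23% of all genes. The difference for Adgrl2 was 0.83 (SE 0.13, adjusted p = 0.000444), in all 15 leave-out fits.

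Of Adgrg1's ligands and surface partners, 9 of 10 listed genes were tested. Col3a1, the gene of collagen III and a known ligand, was abundant at 1130 TPM, between 1630 and 5630 CPM. It was at 5180, 5630 and 5250 CPM at t48 in lines 6, 7 and 16, against 2890, 2710 and 2970 CPM at t0. It rose by 0.91 in log2 at NLS t48 (SE 0.05, adjusted p = 5.99e-08, edgeR) and fell by 0.76 at t6 (SE 0.05, adjusted p = 7.13e-07), in all 9 leave-out fits each. In LacZ it fell by 0.24 at t48 (SE 0.06, adjusted p = 0.0216), a call that none of the 6 leave-out fits kept (adjusted p up to 0.221, without line 10). The difference of responses was 1.14 (SE 0.08, adjusted p = 1.08e-06). Over the list at NLS t48, 3 genes were higher (Col3a1, Lama5 and Igsf8) and 3 lower (Tgm2, Cd9 and Cav1), beside 14.8% and 11.3% of all genes, with a median of 0.11 against -0.01 over all genes. Lama5, a laminin chain, rose by 1.56 (SE 0.19, adjusted p = 0.000132) and Igsf8, a tetraspanin partner, by 0.50 (SE 0.09, adjusted p = 0.000745), in all 9. Tgm2, tissue transglutaminase, was lower by 0.43 (SE 0.13, adjusted p = 0.0285), a call kept in 4 of 9 leave-out fits (adjusted p up to 0.2, without line 6). Cd9, a tetraspanin, was lower by 0.43 (SE 0.10, adjusted p = 0.00958), a call kept in 8 of 9 (0.0998 without line 6), and Cav1, caveolin, by 0.47 (SE 0.13, adjusted p = 0.0196), a call kept in 4 of 9 (up to 0.105, without line 6). At t6, 0 were higher and 2 lower, beside 11.6% and 9.23% of all genes, with the block 3 and 3, where 34.7% of genes were called in either direction. In LacZ 1 was higher (Tgm2, kept in 0 of 6 leave-out fits, adjusted p up to 0.321 without line 10) and 1 lower (Col3a1), beside 8.68% and 9.87% of all genes, with the block 3 and 3 (33% in either direction).

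The genes of G proteins and RhoA output, were all tested, 17 of 17. At NLS t48 against t0, 1 was higher and 5 lower, beside 14.8% and 11.3% of all genes (median -0.07 against -0.01). Rhoa, at 330 TPM, fell by 0.22 (SE 0.05, adjusted p = 0.00911, edgeR) and Arrb1, a beta-arrestin that takes receptors off the membrane, by 0.47 (SE 0.07, adjusted p = 0.000319), in all 9 leave-out fits. On length-scaled counts the Arrb1 call was lost here (adjusted p = 0.276) and in the difference of responses (adjusted p = 0.258). Gna13, a G protein to which the receptor couples, was at -0.17 (SE 0.06, adjusted p = 0.0486), a call that 1 of 9 kept (adjusted p up to 0.202, without line 7). Arhgef12, which passes G12 and G13 signals to RhoA, was at -0.18 (SE 0.06, adjusted p = 0.0365), kept in 3 of 9 (up to 0.135, without line 16). Prkca, a protein kinase C, was at -0.18 (SE 0.05, adjusted p = 0.0225), kept in 5 of 9 (up to 0.1, without line 7). Length-scaled counts lost the calls of Prkca (edgeR adjusted p = 0.756) and Gna13 (0.0839) here. They kept that of Prkca in the difference of responses (0.0332). The higher gene was Ric8a, a chaperone of G protein alpha subunits (0.40, SE 0.09, adjusted p = 0.00453, in all 9), whose call was lost on length-scaled counts (adjusted p = 0.103). Gna12 was not called in the time contrasts. In LacZ 3 were higher and 0 lower, beside 8.68% and 9.87% of all genes, with the block 6 and 0 (33% in either direction). Leave-out fits kept the LacZ calls of Rhoa and Ric8a in 0 of 6 and that of Prkca in 2 of 6 (adjusted p up to 0.279, 0.342 and 0.143, each without line 10). The difference of responses was lower for 3 (Rhoa, Arrb1 and Prkca), at -0.42 (SE 0.08), -0.71 (SE 0.12) and -0.48 (SE 0.09), and higher for 0, beside 11.2% lower and 12.1% higher of all genes, and with the block lower for 7 and higher for 1 (37.4% in either direction). Each of the 3 calls made without the block was kept in all 15 leave-out fits. At t6, 2 were higher (Gna13, kept in 2 of 9 leave-out fits, and Rhoc, in 3) and 0 lower, beside 11.6% and 9.23% of all genes, with the block 7 and 2 (34.7% in either direction).

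Of genes of melanoma spread and angiogenesis, 10 of 12 were tested. At NLS t48 against t0, 5 were higher (Vegfa, Mmp2, Mmp9, Mmp14 and Cd44) and 1 lower (Nme1), beside 14.8% and 11.3% of all genes, with a median of 0.21 against -0.01. Vegfa, an angiogenic factor whose production Adgrg1 influences in human melanoma cells, rose by 0.40 (SE 0.09, adjusted p = 0.00354, edgeR), and Mmp14, a membrane matrix protease at 246 TPM, by 0.34 (SE 0.07, adjusted p = 0.00231), in all 9 leave-out fits. Mmp9, a secreted protease at 1.29 to 11.3 CPM, rose by 1.05 (SE 0.19, adjusted p = 0.00136), and Cd44, a hyaluronan receptor, by 0.24 (SE 0.05, adjusted p = 0.00402), also in all 9. Mmp2, another matrix protease, was at 0.17 (SE 0.05, adjusted p = 0.0309), a call kept in 2 of 9 leave-out fits, and Nme1 at -0.20 (SE 0.07, adjusted p = 0.0463), kept in 3 of 9 (adjusted p up to 0.165 and 0.248, both without line 6). In LacZ 1 was higher (Cd44) and 3 lower (Mmp2, Mmp9 and Mmp14), beside 8.68% and 9.87% of all genes. Mmp9 fell by 1.17 there (SE 0.22, adjusted p = 0.00246), kept in 5 of 6 leave-out fits (0.104 without line 12), while the calls of Cd44, Mmp2 and Mmp14 were kept in 0 of 6 (adjusted p up to 0.33 without line 10, and 0.395 and 0.264 without line 12). The difference of responses was higher for 4 (Vegfa, Mmp2, Mmp9 and Mmp14) and lower for 0, beside 12.1% and 11.2% of all genes, with the block 4 and 2 (37.4% in either direction); the Vegfa call was kept in 6 of 15 leave-out fits (adjusted p up to 0.204, without line 10). At t6, 3 were higher and 1 lower, beside 11.6% and 9.23% of all genes, with the block 5 and 3 (34.7% in either direction). Mmp9 was higher at t6 than at t0 (log2 fold change 2.36 to 2.78 over the alternative fits) and Mmp2 lower (-0.56 to -0.49). From t6 to t48 Mmp9 fell (-1.71 to -1.45) and Mmp2 rose (0.66 to 0.73). These calls were kept in all 9 leave-out fits each, so Mmp9 was highest at t6. Furin, a protease of secreted proteins, was higher at NLS t6 by 0.73 (SE 0.08, adjusted p = 5.81e-05, edgeR). Of the 3 genes of the processing list it was the only one called there, beside 11.6% higher and 9.23% lower of all genes.

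Of 19 genes within 200 kb of Adgrg1, 13 were measured and 8 tested. The closest adhesion receptor neighbours, Adgrg3 (3.5 kb away) and Adgrg5 (31.5 kb), reached 0.4 and 0.0918 CPM and were too low to test. At NLS t48 against t0, 1 of the 8 was called higher, Ccdc102a (0.58, SE 0.10, adjusted p = 0.000766, edgeR, in all 9 leave-out fits), and 0 lower, beside 14.8% and 11.3% of all genes. In LacZ 0 were higher and 3 lower, beside 8.68% and 9.87% of all genes, with the block 0 and 5 (33% in either direction; median -0.29 against 0). The lower genes were Coq9, Dok4 and Kifc3, at -0.33, -0.51 and -0.73, and leave-out fits kept 0 of 6, 0 of 6 and 2 of 6 of these calls. Among differences of responses, 3 were higher (Dok4, Ccdc102a and Kifc3) and 0 lower, at 0.58, 0.77 and 0.73, beside 12.1% and 11.2% of all genes, with the block 4 and 0 (37.4% in either direction). The Ccdc102a call was kept in all 15 leave-out fits, those of Kifc3 in 6 and Dok4 in 3.

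Genes whose pattern over the 13 libraries was most like that of Adgrg1, by Pearson's r of log2 CPM among 10361 genes, were Plekha2 (r = 0.851), Abca5 (0.827), Runx2 (0.82), Fut10 (0.808), S100pbp (0.785) and Fign (0.771). Those least like it were Cluh (-0.873), Pelp1 (-0.857), Ifrd2 (-0.849) and Exosc4 (-0.839). These are descriptions of libraries that share cell lines and were chosen as extremes of 10361, and their amplitude was far smaller: Plekha2 spanned 112 to 153 CPM and Cluh 160 to 208 CPM, against 3.16 to 39.3 CPM for Adgrg1.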

How the data were processed

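RNA was extracted with Trizol and sequenced as stranded paired-end poly(A) libraries, per the labels' protocols. The submitters' processing notes name Salmon 1.2.0, a tool that assigns reads to transcripts by a model, and the build GRCm38. Per transcript, the authors deposited estimated counts, TPM and effective lengths (other, in bases). Salmon's options and its transcript set are not stated in the labels.

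Of 116546 transcripts, 115977 (99.5%) were matched to a GRCm38 annotation. Their estimated counts were summed per gene and rounded; unmatched transcripts held 0.121 to 0.165% of reads. Genes were tested with edgeR 4.0.16 in R 4.3.3 (quasi-likelihood, TMM, its filter on low counts, 13044 genes kept, robust spread, 1 fit over 13 libraries), adjusted by Benjamini-Hochberg and called below 0.05. Standard errors were derived from the test statistic. Alternatives were DESeq2 1.42.0, other scalings, no filter, length-scaled counts, fewer samples, leave-outs and the replicate block; blocked leave-outs and blocked scalings were added after seeing the data. Scripts were tested on simulated data.

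The same cell line number marks the same line in the labels, so the numbers pair the libraries. Deviations from group means correlated at r = 0.025 to 0.282 between NLS libraries with the same number (9 pairs) and -0.263 to 0.0524 otherwise (18 pairs). Such deviations cancel out within a group, so higher values in the first range pull the second lower. The second range is thus no separate evidence of pairing. LacZ pairs gave -0.0201 with the same number (2 pairs) and 0.0201 otherwise (2 pairs). With 2 lines these values mirror each other, and the pairing of LacZ libraries rests on the labels alone. The gene and the lists were chosen with earlier results of these data known. Values are given for list members that were called or among the highest of their list, and some called members are only counted or named.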

Additional observations from a re-analysis of the deposited data

Results flagged for a closer look

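The 3 NLS lines had more Adgrg1 at t48 than at t0 and both LacZ lines had less, so every line of one set moved opposite to every line of the other. The difference of the responses was 1.41 on the log2 scale without the block (adjusted p = 0.467, edgeR) and 1.58 with cell line as a block (adjusted p = 0.000229). Adcy10 did not follow the time labels in the same libraries, and its part in the difference was not tested.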

How the results depend on the processing

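The results of the time contrasts turned on whether cell line was a block. The replicate block was past the threshold for NLS t48 against t0 (0.55), NLS t48 against t6 (0.77), LacZ t48 against t0 (-1.03) and the difference of responses (1.58), and none of these was past it without the block. With the block these values were 0.55, 0.78, -1.03 and 1.58 on RLE size factors, 0.55, 0.75, -1.09 and 1.64 on library totals, and 0.37, 0.59, -0.85 and 1.22 on length-scaled counts. Without the block, RLE, library totals, DESeq2, no filter, length-scaled counts and fits on the compared groups gave -0.29 to -0.25 for NLS t6 against t0, 0.36 to 0.51 for t48 against t0, 0.61 to 0.79 for t48 against t6, -0.96 to -0.84 for LacZ and 1.2 to 1.46 for the difference. Blocked leave-outs ran from 0.42 to 0.64 for NLS t48 against t0 (5 of 9 past the threshold), 0.68 to 0.85 for t48 against t6 (8 of 9), -1.53 to -0.73 for LacZ (6 of 6) and 1.27 to 2.08 for the difference (15 of 15). Unblocked leave-outs, none past the threshold, ranged from -0.71 to 0.19, 0.08 to 0.98, 0.37 to 1.15, -2.43 to 0.00 and 0.50 to 2.93 in that order. For NLS against LacZ they ranged from -1.93 to -0.46 at t0 and from -0.69 to 1.56 at t48. Of the blocked leave-outs, those without a LacZ library or line repeat 2 checks, 1 per LacZ line. The NLS t6 contrast turned positive without t6 replicate 16 (0.08) or t0 replicate 6 (0.19), and NLS t48 against LacZ t48 turned negative without LacZ replicate 10 (-0.69), NLS replicate 6 (-0.38), line 10 (-0.68) or line 6 (-0.38). For Adgrg1-211 the replicate block reversed the sign to -1.36 (NLS t6), -0.84 (NLS t48), 1.01 (LacZ) and -1.86 (difference), with few reads. The line 6 over line 16 log2 ratio moved to 2.64 with summed TPM, and its leave-outs ran from 1.72 to 2.05; those of line 12 over line 10 ran from 1.46 to 2.25. The causes were not tested.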
